A study of Mus musculus with 8 samples.

Results

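Mouse lincRNA probes are the 691 probes of the array, of 59709 in all, whose names begin with mouselincRNA and that are not control spots. They cover 351 numbered regions with at most 1 probe per strand, 343 on the plus strand and 348 on the minus strand, and each probe has 1 spot. The strand is the sign in the probe's name. Whether that sign gives the strand of the transcript or of the probe could not be checked. The scanner files pair these names with neither a gene nor a position, so the regions are called here by their numbers. The study measured RNA of skeletal muscle from ICR mice, an outbred laboratory strain, at postnatal day 0 (D0, newborn) and postnatal day 65 (D65, young adult), with 4 arrays of 1 colour (Cy3) per age. Its stated aim was to find long noncoding RNAs that differ between these ages. The labels name no treatment, no altered gene and no single muscle. They also do not state whether the 4 samples of an age are 4 animals. Each p-value sets a difference between the ages against the scatter among these samples. That scatter can be technical, so a p-value may not extend to animals. Precision is limited by the 4 arrays per age.

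Long intergenic noncoding RNAs (lincRNAs) are transcripts that lie between protein-coding genes and are often spliced and given a tail like messenger RNAs. As a class they are known for low and tissue-restricted levels. Some act in the nucleus on chromatin or transcription, several are known to act in the differentiation of muscle cells, and for most no role is established. A region that gives RNA from 1 strand should light up the probe of that strand, which is why such arrays carry a probe for each.

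A spot counted as detected where the scanner software marked it as well above background. The level of a probe is log2 of its processed signal minus the 75th percentile of that array over all probes, so that 0 is the 75th percentile of the array. Levels of different probes depend on each probe's sequence, so they rank spot brightness and not the amount of RNA. All 8 arrays were scanned as 1 slide, with the D0 arrays in row 1 and the D65 arrays in row 2, so slide row and age cannot be told apart. None of the 37 marker genes chosen for muscle and for other cell types has a probe with its name, so the tissue label was not checked. In whole tissue, a lower share of the cells that hold a transcript and less of it per cell cannot be told apart.

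Most mouse lincRNA probes were dim. On the D0 arrays 43.3%, 43.3%, 43.1% and 41.4% of them were well above background (replicates 1 to 4), and on the D65 arrays 32.0%, 33.4%, 41.5% and 38.4%. The lowest D0 array and the highest D65 array almost met, at 286 and 287 detected probes. The mean share was 42.8% ± 0.919 at D0 and 36.3% ± 4.41 at D65 (SD, n = 4), a difference of -6.44 percentage points with an exact permutation p of 0.0571 (two-sided, 0.114 after Benjamini-Hochberg adjustment over 4 such tests, smallest possible p 0.0286). Over all probes the shares ran from 63.1% to 68.4% at D0 and from 52.3% to 60.7% at D65, and over 1200 negative control spots per array from 15.3% to 18.4% and from 8.67% to 13.8%. The share of negative control spots was thus lower at D65 as well. Without D0 replicate 4 the difference in the mouse lincRNA share was -6.90 points.

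**Figure D1:**
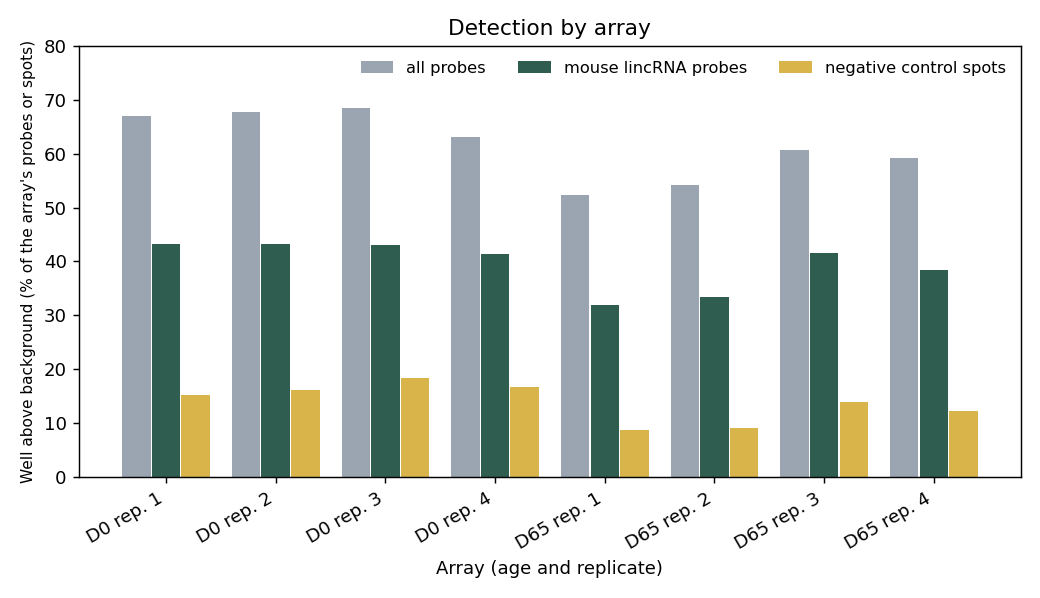
Bars give, for each of the 8 arrays (x axis), the percent of probes or spots well above background (y axis, from 0) for all 59709 probes, for the 691 mouse lincRNA probes and for 1200 negative control spots, each bar 1 array with no error bar. The mouse lincRNA bars stand between the other groups on every array, and D65 replicates 1 and 2, at 32.0% and 33.4%, are the lowest.

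Set against all probes of the same array, the mouse lincRNA share was lower by 23.8 percentage points at D0 (mean of 4 arrays, SD 1.53) and by 20.3 at D65 (SD 0.737). This distance was smaller at D65 by 3.53 points, with an exact permutation p of 0.0286, the smallest that 4 against 4 arrays can give, and 0.114 after adjustment over the 4 tests. It turned to -0.74 points (exact permutation p = 0.486) where detection was the weaker flag of a signal that is positive and significant. Both shares well above background were lower at D65, and a distance in percentage points can shrink through that alone. The test thus cannot tell a change of the mouse lincRNA probes from the lower detection of all probes.

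Across the arrays the probes fell into 3 parts. On all 8 arrays 189 probes were well above background, on none 301, and on 1 to 7 arrays 201. The share on no array, 43.6%, lay near that of the 1217 probes of human-derived lincRNAs (46.4%) and above that of the 3457 probes of lincRNA exons from the mm9 genome (27.4%) and of all probes (23.0%). Of the mouse lincRNA probes, 230 were detected on all 4 D0 arrays and 200 on all 4 D65 arrays. More D0 than D65 arrays detected the probe in 137 cases, and more D65 than D0 arrays in 45. Only D0 arrays detected 77 probes and only D65 arrays 21. Probes on all 4 arrays of 1 age and none of the other numbered 7 for D0 and 0 for D65. These counts by age were not taken over all probes, so they do not set the mouse lincRNA probes apart. The detected share of all probes was also lower at D65, 52.3% to 60.7% against 63.1% to 68.4% at D0.

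**Figure D2:**
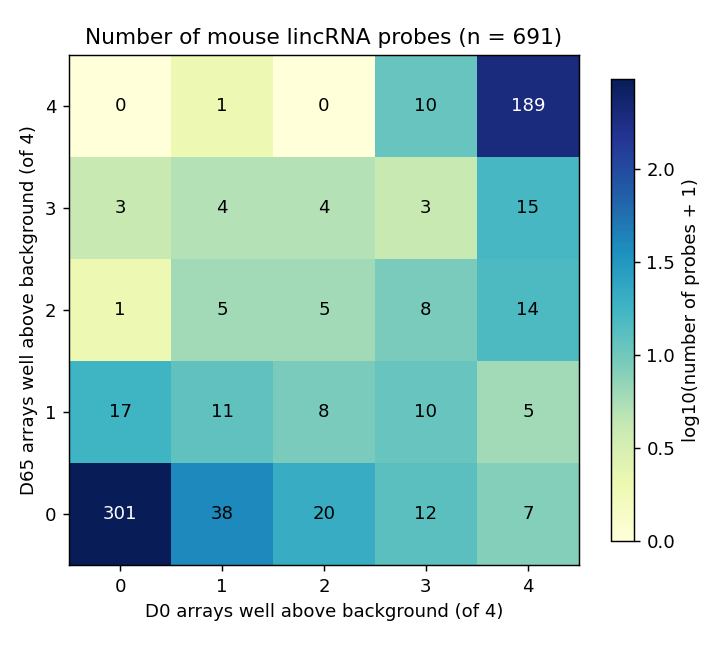
Each cell gives the number of mouse lincRNA probes well above background on that many D0 arrays (x axis, 0 to 4) and D65 arrays (y axis, 0 to 4), with darker cells for more probes on a log scale. Most probes lie at the corners, 301 on no array and 189 on all 8, and the bottom row holds more probes than the left column.

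The 301 probes that were dim on every array had a median level of -5.81 at D0 and -5.17 at D65, with a median raw spot brightness of 55.1. These levels lie in the range of spots without a significant signal: 66.8% of their spots were not significantly above background, and 68 of the probes had no significant spot on any array. The scanner software gives such spots a small stand-in value. On mouse lincRNA spots that were not significant, that value had a median level of -6.15, -6.31, -6.27 and -5.54 on D0 replicates 1 to 4 and of -4.94, -5.16, -5.48 and -5.50 on D65 replicates 1 to 4. The 75th percentile itself was 8.09, 8.27, 8.0 and 7.09 at D0 and 7.05, 6.91, 7.19 and 7.24 at D65 on the log2 scale. D0 replicates 1 to 3 thus stood apart from D0 replicate 4 and the D65 arrays in both values. Beside these values, 274 of the 301 dim probes had a higher level at D65, with a median difference of 0.74.

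The brightest probes among those on no array were the minus-strand probe of mouselincRNA1170 and the plus-strand probe of mouselincRNA0814. The first had levels of -4.06, -4.52, -3.95 and -3.36 at D0 and -3.40, -3.48, -3.57 and -3.26 at D65. The second had -5.69, -4.03, -3.97 and -4.44 at D0 and -3.46, -3.14, -3.29 and -4.10 at D65. Both sets overlap between the ages. Without a filter on dim probes, 16 of the 450 mouse lincRNA probes outside the filter below were called higher at D65 and 1 lower, the minus-strand probe of mouselincRNA0307. Of the 16, 12 were dim on all arrays, and 64 of the 96 spots of those 12 were not significant (40 of 48 at D0, 24 of 48 at D65). In that fit 39 of the 691 probes were called higher and 1 lower, while 6.46% of all 59709 probes were called higher and 7.64% lower.

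For the comparison of ages a probe had to be detected on all 4 arrays of D0, of D65 or of both. This kept 241 of the 691 mouse lincRNA probes (34.9%) against 58.5% of all probes. Of the kept probes, 189 passed at both ages, 41 through D0 alone and 11 through D65 alone. The other 450 had no tested difference. Levels were compared with limma over all 34948 kept probes, and a call needed a Benjamini-Hochberg adjusted p under 0.05 together with a log2 difference of 1 or more in size.

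At D65, 27 of the 241 kept mouse lincRNA probes were called higher and 0 lower. Over all kept probes the same rule called 9.57% higher and 12.6% lower. In the limma fit 8 mouse lincRNA probes had an unadjusted p under 0.05 with a lower level at D65, and 0 of these reached a difference of -1, beside 20.5% and 13.7% of all kept probes. With the adjusted p alone, 46 were higher and 6 lower, beside 14.7% and 15.8% of all kept probes. The levels of the ages did not overlap in 46 probes that were higher and in 5 that were lower at D65, beside 15.1% and 16.4% of all kept probes. The 27 higher calls are 11.2% of the kept members, near the background, while 0 lower calls are below it.

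Mouse lincRNA probes are dimmer than most, so the background was also taken over the 13022 kept probes whose mean level lies within the interquartile range of the kept members, -2.36 to -0.29. There 8.69% were called higher and 9.67% lower. The members themselves were not limited to this range, so their calls and median are those of all 241. The levels are thus matched only in part. The median difference of the 241 kept members was 0.40, against 0.06 over all kept probes, 0.16 in that range of levels, 0.32 for 410 kept human-derived lincRNA probes and 0.21 for 1774 kept mm9 lincRNA exon probes. Of the kept members, 192 (79.7%) had a difference above 0, beside 53.5% of all kept probes. The share was 73.7% for the kept human-derived lincRNA probes and 62.4% for the kept mm9 lincRNA exon probes. The differences of the kept members ran from -1.24 to 2.55. A lower share of lower calls was also found for the human-derived lincRNA probes, with 4 of 410 lower and 53 higher. The mm9 lincRNA exon probes gave 159 lower and 193 higher of 1774. No test of these classes against each other was made.

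**Figure D3:**
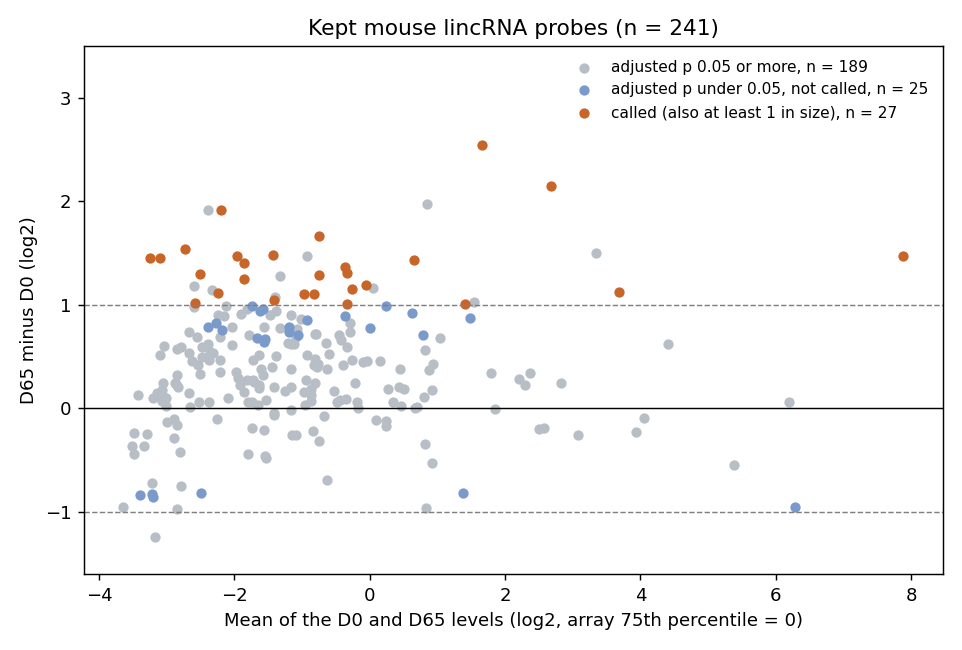
Each point is 1 of the 241 kept mouse lincRNA probes, with its mean level over the ages (x axis, log2) and its difference, D65 minus D0 (y axis, log2, dashed lines at 1 and -1). The 27 called probes all lie above 1, at levels from below -3 to nearly 8, and the 25 probes with an adjusted p under 0.05 that were not called are mostly above 0.

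The count of higher calls moved with the arrays and the background correction. It was 47 without D0 replicate 4 and 49 with limma's array weights. After normexp correction of the raw spot brightness it was 8, or 7 where the arrays were then quantile-normalized. This correction adds an offset of 50, which shrinks the log2 differences of dim spots and makes the minimum of 1 harder to reach. How much of the smaller count this makes up was not tested. Of the 27, 17 were called without each array in turn. In 22 of the 27 called probes D0 replicate 4 was the highest D0 array. This was not particular to the called probes. The median level of all kept members was also highest there, -1.22 against -1.71, -1.69 and -1.55 on D0 replicates 1 to 3. Within slide columns, each of which holds 1 D0 and 1 D65 array, 26, 27, 27 and 25 of the 27 were higher at D65 in columns 1 to 4. The 27 were called on these same arrays, and the ages do not overlap in 22 of them. These column counts were thus largely fixed by the call and add no support. Over the kept members the D65 array was higher for 184, 183 and 199 of 241 in columns 1 to 3 and for 118 of 240 in column 4, which holds D0 replicate 4. Their median difference was 0.57, 0.55, 0.56 and -0.03 in columns 1 to 4. That of all kept probes was 0.16, 0.10, 0.09 and -0.10, so it turned in column 4 as well.

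The largest difference was that of the minus-strand probe of mouselincRNA0706. Its levels were 0.06, 0.51, 0.22 and 0.72 at D0 and 3.82, 2.79, 2.67 and 2.43 at D65. All D65 arrays stood above all D0 arrays, and D65 replicate 1 was highest. The mean rose from 0.38 ± 0.30 to 2.93 ± 0.62 (SD, n = 4), a log2 difference of 2.55 (SE 0.32) or 5.85-fold, with a limma adjusted p of 0.00027. The plus-strand probe of the same region was called as well, with levels of 0.65, 0.90, 0.89 and 1.19 at D0 and 1.80, 2.29, 1.69 and 1.88 at D65, a 2.01-fold difference (adjusted p = 0.00642). Its call was lost after either normexp correction (lowest difference 0.78), without D0 replicate 1 and without D65 replicate 2. mouselincRNA0706 was the only region with both strands called.

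For mouselincRNA1250 the minus-strand probe had levels of 1.5, 1.25, 1.23 and 2.43 at D0 and 3.74, 3.62, 3.63 and 4.01 at D65. The D65 values were close together and D0 replicate 4 was the highest of its age. The mean went from 1.60 ± 0.57 to 3.75 ± 0.18 (SD, n = 4), 4.43-fold, with a limma adjusted p of 0.000425. The plus strand of this region did not pass the filter.

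For mouselincRNA1623 the minus-strand probe was dimmer, with levels of -1.63, -1.39, -1.47 and -1.82 at D0 and -0.28, 0.24, 0.08 and 0.29 at D65. It was 3.16-fold higher at D65 (adjusted p = 0.000315), and here D0 replicate 4 was the lowest of its age. Its plus-strand probe had a mean of -1.45 ± 0.13 at D0 and -0.58 ± 0.95 at D65 (SD, n = 4), and the ages overlapped through D65 replicate 4 at -1.94.

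On average the brightest mouse lincRNA spot was the plus-strand probe of mouselincRNA0077. Its levels were 6.99, 7.0, 7.51 and 7.10 at D0 and 8.60, 8.86, 8.36 and 8.68 at D65. Both ages were tight and apart, with a 2.78-fold difference (log2 1.47, SE 0.21, adjusted p = 0.00065). The minus-strand probe of the region was detected on all 8 arrays at means of 0.54 ± 0.62 and 1.1 ± 0.40 (SD, n = 4), and its difference of 0.57 had an adjusted p of 0.229.

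A further 4 probes that were detected on all arrays rose with no overlap between the ages. In mouselincRNA0288 the minus-strand probe was 2.78-fold higher at D65, with D0 levels from -2.50 to -1.79 and D65 levels from -0.85 to -0.39. In mouselincRNA1337 the minus-strand probe was 2.77-fold higher, from -2.70 ± 0.65 to -1.23 ± 0.31 (SD, n = 4). In mouselincRNA1631 the plus-strand probe was 2.57-fold higher, from -1.05 ± 0.42 to 0.31 ± 0.33. In mouselincRNA1339 the minus-strand probe was 2.47-fold higher, from -0.99 ± 0.22 to 0.32 ± 0.18. Of these only mouselincRNA1631 kept its call after normexp correction, and the lowest differences of the other 3 were 0.81, 0.56 and 0.91. The limma adjusted p of the 4 probes ran from 0.000987 to 0.00767.

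**Figure D4:**
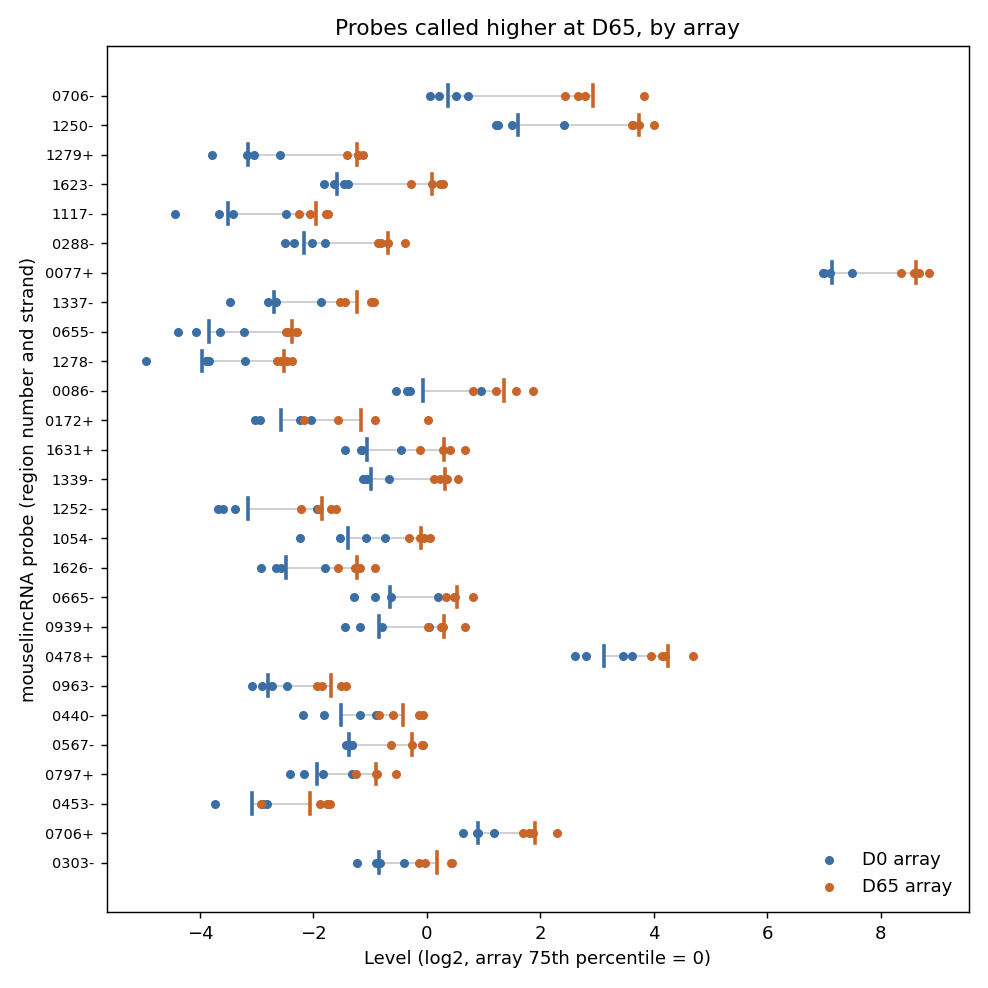
Rows are the 27 probes called higher at D65, ordered by difference and named by region number and strand. Points give the level on each of the 4 D0 and 4 D65 arrays (x axis, log2, 0 is the array's 75th percentile), and vertical ticks the mean of each age. In 22 of the rows the ages do not overlap, and only the probes of mouselincRNA0706, mouselincRNA1250, mouselincRNA0077 and mouselincRNA0478 have a D0 mean above 0.

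Over the 27 the fold ran from 2.01 to 5.85 with a median of 2.47, 13 reached 2.5-fold, 4 reached 3-fold, 2 reached 4-fold and 1 reached 5-fold. At D0 their median level was -1.52, and 22 lay below 0. Of the 27, 22 were detected on all 8 arrays, 4 passed the filter through D65 alone and 1 through D0 alone. The largest of the 4, and the third largest of all 27, was the plus-strand probe of mouselincRNA1279, detected on 3 D0 arrays, with D0 levels of -3.78, -3.18, -3.06 and -2.58 and D65 levels of -1.21, -1.40, -1.12 and -1.22, a 3.76-fold difference. These 4 entered the test through the age where they are higher, so they add no support to the count. Another bright called probe was the plus strand of mouselincRNA0478, which went from 3.13 ± 0.49 to 4.25 ± 0.31 (SD, n = 4), 2.17-fold.

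The calls nearest to the threshold had ages that overlapped. That of the minus strand of mouselincRNA0453 was called with an adjusted p of 0.0392, although D65 replicate 1 at -2.92 lay among the D0 arrays (-3.74 to -2.82). That of the plus strand of mouselincRNA0172 was called with an adjusted p of 0.0377, with D65 levels of -0.91, 0.02, -1.57 and -2.17 against D0 levels from -3.03 to -2.04. Their calls were lost under 10 of 17 and 11 of 19 alternatives. Just past an adjusted p of 0.05 lay the minus-strand probe of mouselincRNA0632 and the plus-strand probe of mouselincRNA0997, both at 0.0503 and with differences of 0.90 and 0.63. The minus-strand probes of mouselincRNA0561 and mouselincRNA0063, added after their values were seen, passed on the adjusted p (0.00548 and 0.0194) and missed the minimum difference at 0.99 each. A further 10 kept probes had a difference of at least 1 and were not called.

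No probe was called lower, and 6 had an adjusted p under 0.05 with a smaller fall. The brightest of them was the minus-strand probe of mouselincRNA0161, with levels of 6.67, 6.73 and 6.89 on D0 replicates 1 to 3 and of 6.07, 5.87, 6.18 and 5.14 at D65. Its D0 replicate 4 spot was marked as an outlier by the scanner software and left out (n = 3 at D0). That spot counted as not detected, so the probe passed the filter through D65 alone although it is bright. All D65 values lay below the D0 values, and the difference was -0.95 (adjusted p = 0.0352), just under the minimum. It was called lower with normexp scaled by the 75th percentile (difference -1.19), with array weights (-1.12), without D65 replicate 1 and without D65 replicate 3.

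Also lower was the minus-strand probe of mouselincRNA0484, which had levels of 1.90, 1.56, 1.68 and 2.00 at D0 and 1.01, 1.21, 0.80 and 0.85 at D65. The ages did not overlap, and the difference was -0.82 (SE 0.20, adjusted p = 0.0126). The other 4 were the plus-strand probes of mouselincRNA0086, mouselincRNA0109 and mouselincRNA0744 and the minus-strand probe of mouselincRNA1388, with differences of -0.82, -0.86, -0.83 and -0.83. All 4 entered the test through D0 alone, the age where they are higher, so they add no support to the count of 6.

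The brightest probes included others that did not separate the ages. One was the minus-strand probe of mouselincRNA1188, which had levels of 6.66, 6.88, 5.46 and 5.63 at D0 and 6.76, 6.20, 5.61 and 6.32 at D65, which overlap fully. Another, the plus-strand probe of mouselincRNA1437, had 5.47, 5.29, 5.46 and 6.41 at D0 and 6.04, 3.98, 5.09 and 5.30 at D65, with a difference of -0.55 (adjusted p = 0.356). Neither passed the test, with an adjusted p of 0.919 for mouselincRNA1188.

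The 7 probes found on all D0 arrays and on no D65 array were all near the detection limit. They were picked by their detection at D0 and entered the test through D0 alone. Their bounds and adjusted p-values thus add no support for a lower level at D65, and the bounds hold for the processed signal only. A bound on their fold was taken from the mean D0 level over the mean, per array, of the lowest detected signal or the probe's own D65 signal, whichever was higher. For mouselincRNA0996 the minus-strand probe had D0 levels of -2.70, -3.94, -1.0 and -2.56 and was at least 1.35-fold higher at D0, with an adjusted p of 0.156. This bound rests on D0 replicate 3, without which the D0 mean of -3.07 lay below the limit of -2.99 and the difference went from -1.24 to -0.72. For mouselincRNA0109 the plus-strand probe had D0 levels of -2.83, -3.17, -2.91 and -2.16 and was at least 1.21-fold higher (adjusted p = 0.0432). The plus-strand probe of mouselincRNA0744 was at least 1.18-fold higher (adjusted p = 0.0162), and the minus-strand probe of mouselincRNA1388 at least 1.04-fold (adjusted p = 0.0395), with no fold above 1 without D0 replicate 3 or 4. The minus-strand probes of mouselincRNA0238 and mouselincRNA1147 and the plus-strand probe of mouselincRNA0390 had no fold above 1. With normexp and the 75th percentile the differences of mouselincRNA0109, mouselincRNA0238, mouselincRNA0996 and mouselincRNA1388 were 0.20, 0.34, 0.12 and 0.25. The direction thus turned in all 4. Under the same setting all 301 probes dim on every array had a difference above 0, so this turn was not particular to the 4. With normexp and quantile normalization the 4 stayed lower at D65, at -0.23, -0.099, -0.29 and -0.14 in the same order.

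Strand was compared over the 340 regions that have a probe on each strand. Both strands were kept in 44 regions, the plus strand alone in 74, the minus strand alone in 77 and neither in 145. In 83 regions 1 strand was detected on all 8 arrays and the other on none, in 28 both were detected on all 8, and in 65 both on none. The plus-strand probe was the brighter in 167 regions and the minus-strand probe in 173, and the brighter strand was the same on all 8 arrays in 181. Detection was alike over the strands, with 34.7% of the plus-strand and 35.1% of the minus-strand probes kept. The levels of a region's strands had a Spearman correlation of 0.0115 over the 340 regions, whose values share the same 8 arrays.

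The brighter strand lay above the dimmer by a median of 1.98 ± 0.0875 on the D0 arrays and 1.83 ± 0.196 on the D65 arrays (SD, n = 4, log2). The difference of -0.15 had an exact permutation p of 0.257 (0.286 adjusted over the 4 tests), and with regions that have a kept strand it was 0.07. Where both strands were kept, the widest gaps were in mouselincRNA0077, mouselincRNA0453, mouselincRNA0655 and mouselincRNA0484. In mouselincRNA0453 the plus-strand probe had means of 2.66 ± 0.54 and 2.47 ± 0.35, and the minus-strand probe means of -3.09 ± 0.43 and -2.07 ± 0.57 (SD, n = 4). In mouselincRNA0655 the plus-strand probe had 0.75 ± 0.30 and 0.86 ± 0.12, and the minus-strand probe -3.83 ± 0.51 and -2.38 ± 0.10. In both regions the dim strand was the one called higher, in mouselincRNA0655 through a probe detected on 1 D0 array and kept only through D65, and the bright strand differed by -0.19 and 0.11 between the ages.

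Called probes were 8 of 119 kept on the plus strand (6.72%) and 19 of 122 on the minus strand (15.6%), a difference that was not tested. The median difference was alike, 0.39 on the plus and 0.40 on the minus strand. In 25 regions 1 strand alone was called. The other strand was kept in 13 of these, and a called probe had an opposite strand dim on all arrays in 10 regions.

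Over the 44 regions with both strands kept, both differences were above 0 in 28, they had opposite signs in 16 and both were below 0 in 0. Of all kept members, 77.3% on the plus and 82.0% on the minus strand had a difference above 0. That alone leaves few regions with both below 0. The counts were not taken over the other lincRNA classes. The differences of the strands had a Pearson correlation of -0.22 and, without mouselincRNA0706, of -0.33 (n = 43), as a description over regions that share the 8 arrays.

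Whether a region's strands changed unequally was tested on the gap between them, plus minus minus level on each array. Each probe has its own brightness per RNA, so the gap is no ratio of transcripts, and its change between the ages is what was compared. The array's scale drops out of this gap, and the background does not. This test was added after the values were seen. It was fitted with limma over 591 regions of the 3 lincRNA classes with both strands kept, and a region was called at an adjusted p under 0.05 and a change of at least 1. Of the 44 mouse lincRNA regions 8 were called, and of all 591 regions 23.0%. In 5 of the 8 a strand was kept only through the age where it is higher, which favours a changed gap, so the count adds no support. Over the regions with both strands detected on all 8 arrays, 4 of 28 mouse lincRNA regions were called, beside 18.8% of 361 regions. They were mouselincRNA0484, mouselincRNA0706, mouselincRNA0013 and mouselincRNA0413, of which the last pair was not called in the wider fit. For that pair the limma adjusted p was 0.0446 and 0.0490, and the gaps overlapped between the ages.

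The largest change was in mouselincRNA0086. The gap was -1.58, -1.66, -2.07 and -2.80 at D0 and -5.25, -4.23, -4.02 and -3.59 at D65. All D65 arrays lay beyond all D0 arrays, and the mean changed from -2.03 to -4.27, by -2.25 (SE 0.41, adjusted p = 0.00332). The minus-strand probe was called higher, from -0.06 ± 0.69 to 1.37 ± 0.46 (2.70-fold), while the plus-strand probe went from -2.09 ± 0.27 to -2.90 ± 0.46 (SD, n = 4, adjusted p = 0.0447), below the minimum difference.

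In mouselincRNA0706 the brighter strand turned. The gap was 0.59, 0.39, 0.67 and 0.46 at D0 and -2.02, -0.49, -0.97 and -0.56 at D65, above 0 on all D0 arrays and below 0 on all D65 arrays. It changed by -1.54 (SE 0.36, adjusted p = 0.0093). In mouselincRNA0484 the gap narrowed from a mean of -4.37 to -3.01, by 1.36 (SE 0.27, adjusted p = 0.00514), with a lower minus-strand level at D65 and plus-strand means of -2.58 ± 0.41 and -2.04 ± 0.33 (SD, n = 4). These 3 regions kept their call after normexp correction, with the replicate block and without each array in turn. The change in mouselincRNA0086 was then smallest after normexp, at -1.08, and its plus-strand probe was kept only through D0, where it is higher.

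The other called regions were mouselincRNA1337, mouselincRNA0655, mouselincRNA0665, mouselincRNA1339 and mouselincRNA0567, with changes of -1.92, -1.35, -1.91, -2.05 and -1.0. In all 5 the minus-strand probe was called higher at D65. The plus-strand probes of mouselincRNA1337, mouselincRNA0665, mouselincRNA1339 and mouselincRNA0567 were detected on all 4 D0 arrays but only on 1, 1, 2 and 2 D65 arrays. Their D65 levels thus lie near the detection limit. These 5 calls were lost after normexp correction, and that of mouselincRNA0567 also without D0 replicate 1, D0 replicate 4, D65 replicate 1 or D65 replicate 2.

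**Figure D5:**
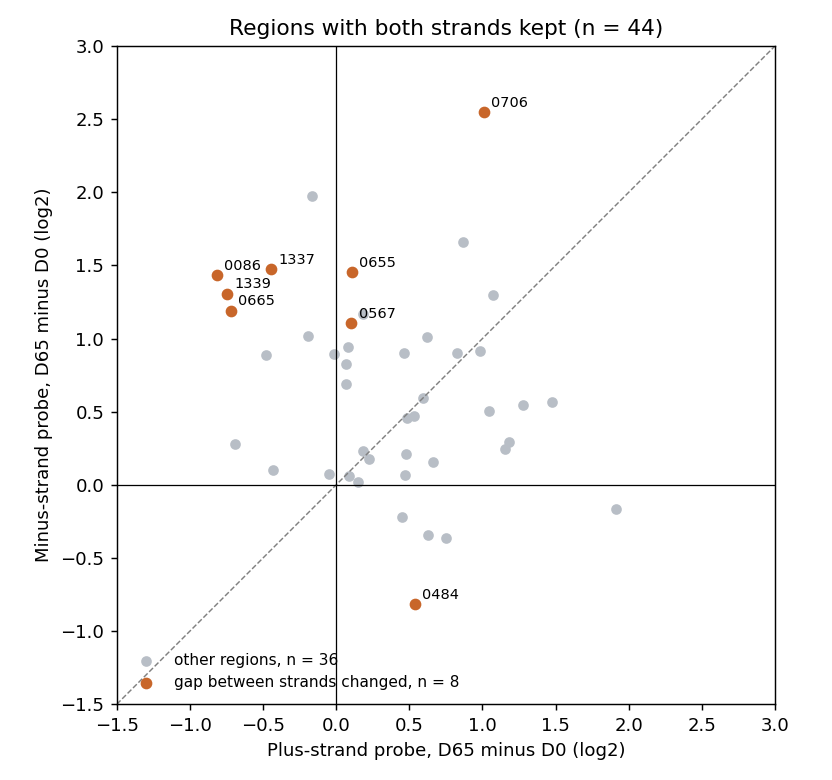
Each point is 1 of the 44 regions with both strands kept, with the D65 minus D0 difference (log2) of the plus-strand probe (x axis) and of the minus-strand probe (y axis), and the dashed line marks equal differences. The 8 regions whose gap between strands changed are labelled by number: 7 lie above the line and mouselincRNA0484 below it, and no point lies where both differences are below 0.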

How the data were processed

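The deposited scanner files hold, per the file headers, spot intensity read with Agilent Feature Extraction 11.0.1.1 on a grid built on mm9: the processed signal (background-subtracted and detrended), the median brightness of spot and local background, and flags for detection, saturation and outliers. Per the labels' protocols, total RNA was depleted of ribosomal RNA, and random-primed cRNA was labelled with Cy3. A deposited value table with the authors' normalized linear intensity of 14529 probes was used as an alternative. How it was made is not given in the sources used here. It lists 189 mouse lincRNA probes, those well above background on all 8 arrays.

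Control and outlier spots were left out, and 0 mouse lincRNA probes were saturated. A probe whose spot was left out as an outlier counted as not well above background on that array. The level is log2 of the deposited processed intensity minus the array's 75th percentile. limma 3.58.1 in R 4.3.3 (lmFit, eBayes) was fitted over all kept probes, with Benjamini-Hochberg adjustment. Values per array were tested with exact two-sided permutation tests in Python 3.11.15 with scipy 1.17.1. The scripts were tested on simulated data. Alternatives changed the background correction (normexp, offset 50), scaling, filter, detrending, weights, threshold, value table, replicate block and arrays left out.

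The probes, classes and tests were chosen with earlier results of these data known. Probes were named by rule: the largest called differences without overlap, the brightest, the widest strand gaps, both strands called, those nearest the threshold, those on 1 age only and the brightest on no array. Other named probes, the background by level and the test of the strand gap were added after the values were seen. Sequences and positions of the regions were not used here.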

Additional observations from a re-analysis of the deposited data

Results flagged for a closer look

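Of 63 groups of 4 arrays among the named values, 6 hold an array that lies far from the other 3 (Dixon's test at its 95% critical value), where chance flags about 1 group in 20. D0 replicate 4 is that array in 4 of the 6. It had the lowest share of mouse lincRNA probes well above background at D0, 41.39% against 43.13% to 43.27% on the other 3. It was the highest D0 array for the minus-strand probe of mouselincRNA1339, at -0.66 against -1.12 to -1.06, for the plus-strand probe of mouselincRNA1437, at 6.41 against 5.29 to 5.47, and for the plus-strand probe of mouselincRNA0997, at -1.05 against -1.69 to -1.67. The other groups belong to the minus-strand probe of mouselincRNA0453, with D0 replicate 2 at -3.74 against -2.90 to -2.82 and D65 replicate 1 at -2.92 against -1.88 to -1.72. Over all kept mouse lincRNA probes the same test marked 30 of 481 groups, 14 of them by D0 replicate 4 and 0 by D0 replicate 1 or D65 replicate 4.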

How the results depend on the processing

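The count of 27 higher calls became 8 (normexp with the 75th percentile, 6 of them among the 27), 7 (normexp with quantile normalization, all among the 27), 49 (array weights, 26 of the 27) and 46 (no minimum difference), and ran from 22 to 47 without each array in turn. The 0 lower calls became 1 (normexp with the 75th percentile), 1 (no filter), 2 (array weights) and 6 (no minimum difference), and ran from 0 to 2 without each array. With the 75th percentile over probes detected on all arrays 38 were higher and 0 lower, and the median over all kept probes moved from 0.06 to 0.18. By the authors' deposited values 23 were higher and 0 lower of 189. In every alternative 6 probes were called, the plus-strand probes of mouselincRNA0077 and mouselincRNA1631 and the minus-strand probes of mouselincRNA0086, mouselincRNA0706, mouselincRNA1250 and mouselincRNA1623. The replicate block, which is also the slide column, gave 30 higher (24 of the 27) and 1 lower, the minus-strand probe of mouselincRNA0996. Same-numbered arrays share a slide column, and their deviations correlated at -0.12, 0.24, 0.28 and -0.13, so the numbers were not taken as pairs of samples.

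The median difference over all 691 probes, 0.59, was 0.20 with quantile normalization and 0.0541 with normexp and quantile normalization. The distance of the detected share from that of all probes reversed to -0.74 with the weaker flag, under which the mouse lincRNA share itself differed by -7.63 points (exact permutation p = 0.0286). The median strand gap of 1.91 was 3.22 over regions with a kept strand, where its change reversed to 0.0667, and 0.41 after normexp. The 8 regions with a changed gap became 4 after normexp, 4 of 28 where both strands were detected on all 8 arrays, 11 with the replicate block and 8 to 10 without each array. The cause of these moves was not tested. Spots near background limit what can be compared: 450 of the 691 probes had no tested difference.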

Other observations

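Some kept probes were marked by single arrays rather than by age, and they were chosen here after their values were seen. The minus-strand probe of mouselincRNA1606 stood at -1.81 on D0 replicate 1 and between 3.58 and 4.85 on the other D0 arrays, with 3.64 to 4.50 at D65. The plus-strand probe of mouselincRNA0085 stood at 2.99 on D65 replicate 2 and between -3.11 and -2.81 on the other D65 arrays, with -3.61 to -2.78 at D0. The minus-strand probe of mouselincRNA0013 had 3.70 on D65 replicate 2, 1.46 and 2.40 on replicates 3 and 4, and -0.22 on replicate 1, against -0.69 to 0.31 at D0. Its mean difference of 1.97 was among the largest, and its limma adjusted p of 0.0522 missed the threshold.

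A set of 5 bright probes varied together within each age: the minus-strand probes of mouselincRNA1188, mouselincRNA0305 and mouselincRNA0158 and the plus-strand probes of mouselincRNA1284 and mouselincRNA0453. After the mean of each age was taken off, each of the other 4 correlated with mouselincRNA1188 at a Pearson r of 0.97 to 0.99 over the 8 arrays, a description with no test of probes chosen by this measure out of 240. Within each age all 5 were highest on D0 replicate 2 and D65 replicate 1, and 0 of the 5 were called between the ages. Their differences ran from -0.22 to 0.06.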
